A study of Homo sapiens with 6 samples.

Results

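This account follows 10 genes that are switched on by the ERK branch of MAP kinase signalling and, for most of them, act back on it: the phosphatase genes DUSP1, DUSP4, DUSP5 and DUSP6, the inhibitor genes SPRY2, SPRY4 and SPRED1, PHLDA1, and the transcription factor genes ETV4 and ETV5. They were chosen by name and function, but with earlier results of these data known. All 10 were found by symbol among the 20263 Ensembl gene IDs counted. The data are RNA sequencing of U118, an established human glioma cell line that the labels call astroblastoma cells. Cells were collected on day 2, which for the siRNA libraries is day 2 of transfection. The WT title names no siRNA, so WT and the knockdown libraries may differ in transfection as well as in RIPK2. There were 6 libraries. WT was 1 library of wild-type cells, siNC was 1 library of cells labelled NC (taken here as a control siRNA), and siRIPK2_1 to siRIPK2_4 were 4 libraries of RIPK2 knockdown cells. The series set out to ask how knockdown of RIPK2, a kinase downstream of the NOD1 and NOD2 receptors, affects U118 cells. All libraries are from 1 cell line grown in serum-containing medium, and nothing says whether the 4 knockdown libraries are different siRNAs, separate cultures or repeats. Each control is a single library with no SD, so a p-value here reflects only how far these libraries differ, and that may be technical.

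ERK is the last kinase of a relay that runs from growth factor receptors through RAS, RAF and MEK. Active ERK induces its own brakes: dual-specificity phosphatases (DUSPs) remove the activating phosphates from MAP kinases, and Sprouty and SPRED proteins act further up, between the receptor and RAF. Because they follow ERK activity closely, transcripts of several of these genes, with those of PHLDA1, ETV4 and ETV5, are widely used as a readout of the pathway in tumour cells, glioma included. RIPK2 itself is known to feed into NF-kB and MAP kinases through the kinase TAK1.

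Promoter sequences were available for 6 of the 10 genes (DUSP1, DUSP6, SPRY2, SPRY4, SPRED1 and PHLDA1) as 8 RefSeq windows on GRCh38.p14, from 250 bases before to 50 bases after a transcript start. They were searched on both strands for 6 motifs, namely the cAMP response element TGACGTCA, the AP-1 site TGANTCA, the ETS core CCGGAA, the EGR site GCGTGGGCG, the CArG box bound by SRF and the NF-kB site. The 30 bases around the match in DUSP1 (chr5:172771302-172771331, minus strand) and in SPRY2 (chr13:80341251-80341280, minus strand) are shown, 5′ to 3′ with the motif in capitals.
DUSP1: ggcagggcgggTGACGTCAccgccccgtca
SPRY2: tccctgcctcctCCGGAAaggcgagggcgc
The DUSP1 match is a cAMP response element that begins 125 bases before the start of the gene's only window, a motif held by 1.85% of all 35116 windows of this length. SPRY2 has 3 windows, and its match is an ETS core in 1 of them, 142 bases before a RefSeq start at position 80341126, which lies upstream of the GENCODE span of the gene given with its values. An ETS core is held by 17.2% of windows, and by at least 1 window in 33.4% of the 1019 genes that have 3. PHLDA1 also held an ETS core. The AP-1, EGR, CArG and NF-kB motifs, found in 7.71%, 0.795%, 1.29% and 11.3% of all windows, had no match in the windows of these 6 genes, which says only that those letters are not there.

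Total counts ranged from 33540619 to 45309423 per library, and mitochondrially encoded transcripts took from 4.1% to 4.71% of them. Levels are given as CPM, counts scaled by library size with TMM factors. RIPK2 was below both controls in 4 of 4 knockdown libraries, with a mean of 6.57 ± 3.67 CPM (SD, n = 4) beside 56.8 CPM for WT and 43.4 CPM for siNC. Of all genes tested, 5.5% lay below both controls in all 4. The edgeR log2 fold change of RIPK2 was -2.72 against siNC and -3.11 against WT. Even so, RIPK2 did not pass the adjusted threshold of 0.05 in edgeR against either control. A gene not called below may therefore still differ. Among markers of the labelled cell type, VIM (3812 to 7572 CPM), CD44 (224 to 556 CPM) and SOX9 (47.5 to 122 CPM) were present, while the astrocyte markers GFAP (0.531 to 1.09 CPM), S100B (0 to 0.0486 CPM) and AQP4 (0 in every library) were at or near 0. The progenitor and glioma markers NES (18.5 to 73.1 CPM) and SOX2 (0.748 to 14 CPM) varied between libraries, and OLIG2 was at most 0.187 CPM. Of 6 macrophage and microglia markers, CD68, a lysosomal protein gene, was present in every library (91.1 to 164 CPM) and CSF1R was low (1.18 to 3.69 CPM). CD14 (at most 0.715 CPM), ITGAM (at most 0.192 CPM), PTPRC (at most 0.11 CPM) and AIF1 (0 in every library) were at or near 0.

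All 10 genes were well measured: the smallest count behind any of their values was 712, for which counting error alone is 3.75%, and the largest 45156. Levels were compared between genes per kilobase of annotated exon. That length takes in all annotated exons, not only those of the transcripts expressed, so the order is approximate. By this measure PHLDA1 was highest with a mean of 92.5 ± 17.7 CPM per kb (SD over 6 libraries). DUSP5 (49.7 ± 23.3 CPM per kb) and DUSP1 (43.8 ± 15.5 CPM per kb) came next and overlapped in range. DUSP6 (23.7 ± 5.42 CPM per kb), ETV5 (21.6 ± 7.66 CPM per kb) and SPRY2 (20.6 ± 1.5 CPM per kb) formed a group whose ranges overlapped. DUSP4 (10.6 ± 3.26 CPM per kb) stayed below SPRY2 in every library by this measure, though its mean before division by length was higher (76.7 against 62.7 CPM). ETV4 (7.09 ± 1.82 CPM per kb), SPRY4 (6.92 ± 2.07 CPM per kb) and SPRED1 (6.51 ± 1.99 CPM per kb) could not be ordered among themselves.

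No shared shift of these genes was detected after RIPK2 knockdown. Against siNC, 4 of the 10 had a higher and 6 a lower mean, with a median log2 fold change of -0.06 beside 0.02 over all 14306 genes tested. Against WT, 6 were higher and 4 lower, with a median of 0.21 beside 0.01. In edgeR's quasi-likelihood test no member passed an adjusted p of 0.05 in either comparison (adjusted p = 1 for each), and the share of all tested genes past that threshold was 0% in both. At an unadjusted p under 0.05 there were also 0 members in either direction, while 3.56% of all genes stood there as higher and 1.21% as lower against siNC, and 0.664% and 0.419% against WT. Against the pooled controls, again 0 members passed, with 0% of 13901 genes past the threshold. There DUSP5 alone had an unadjusted p under 0.05, as higher, on a side held by 1.32% of all genes (1.23% as lower). These counts at an unadjusted p are those of edgeR alone. For DUSP5 against the pooled controls the unadjusted p was 0.0142 in the DESeq2 Wald test and 0.0446 in limma-voom. The DESeq2 Wald test and limma-voom also called 0 members in each comparison. Both comparisons share the knockdown libraries. The 95% interval of the log2 fold change reached a 2-fold difference for 7 of the 10 genes against siNC and for 9 against WT, so a difference of that size cannot be set aside for them.

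**Figure D1:**
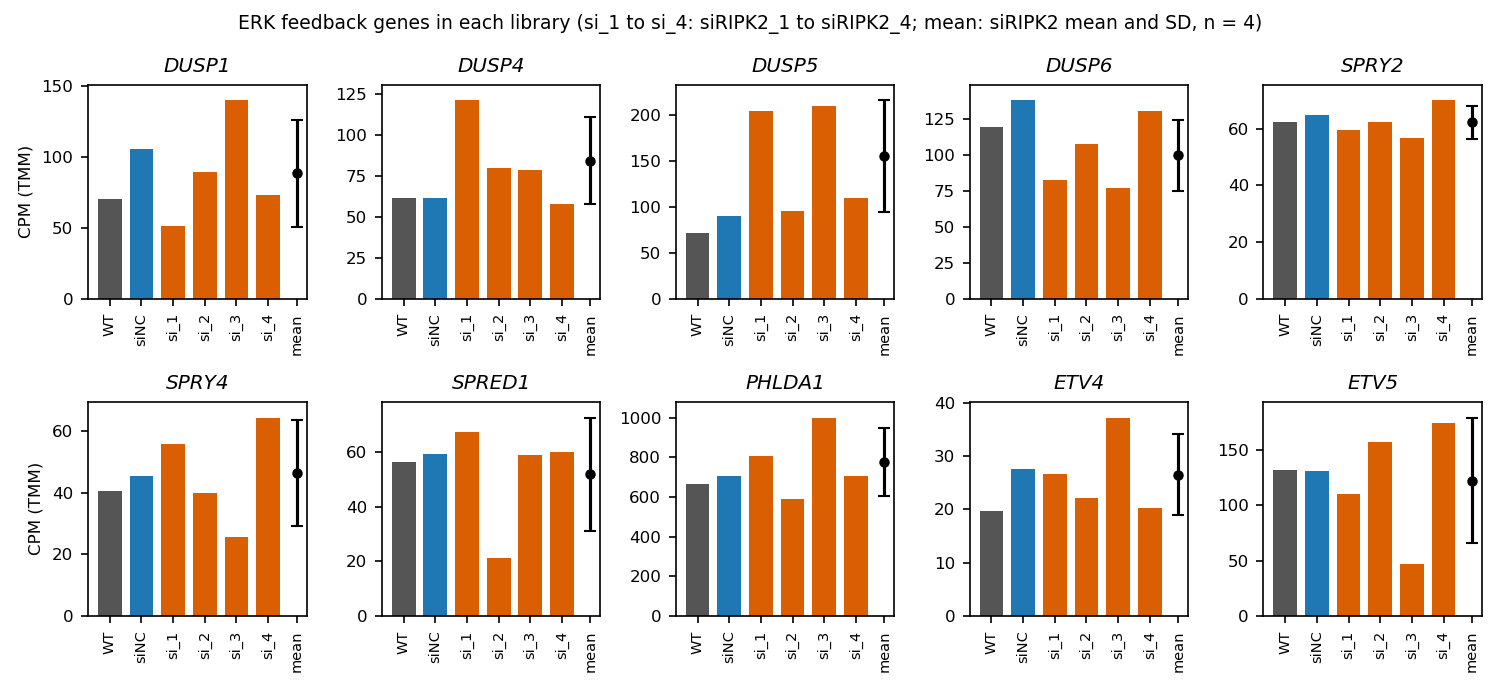
Level of each of the 10 genes in CPM (y axes start at 0) in the WT library (grey), the siNC library (blue) and the 4 siRIPK2 libraries (orange), with the siRIPK2 mean and SD (n = 4) as a black point and bar. DUSP5 stands above both controls in all 4 knockdown libraries, SPRED1 is at 21.1 CPM in siRIPK2_2 against at least 56.4 CPM elsewhere, and ETV5 is at 47.3 CPM in siRIPK2_3 against at least 111 CPM elsewhere.

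Among the phosphatases, DUSP5, a nuclear phosphatase with a strong preference for ERK (chromosome 10, 110497838 to 110511544, plus strand, GRCh38), was the member with the highest knockdown mean relative to the controls. WT held 71.3 CPM and siNC 89.6 CPM, against 204, 95.1, 209.9 and 109 CPM in siRIPK2_1 to siRIPK2_4. All 4 knockdown libraries lay above both controls, siRIPK2_1 and siRIPK2_3 by far the most and siRIPK2_2 only just. DUSP5 was the only member whose groups did not overlap in this direction, against 4.96% of all genes tested, and 0 members lay below both controls in all 4, against 5.5%. The log2 fold change was 0.79 against siNC (95% interval -0.41 to 1.98, SE 0.516, adjusted p = 1 in edgeR) and 1.12 against WT (-0.11 to 2.34, SE 0.528, adjusted p = 1). Against both controls it was 0.94 (0.10 to 1.78) with an unadjusted p of 0.0318 and an adjusted p of 1 in edgeR. By exact permutation of the library labels the 2-sided p was 0.133, where 0.0667 is the smallest that 4 against 2 libraries can give. Without siRIPK2_1, siRIPK2_3, siNC or WT the unadjusted p in edgeR was 0.0702, 0.0693, 0.065 and 0.166, while without siRIPK2_2 or siRIPK2_4 it was 0.0101 and 0.0195.

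DUSP6, the cytoplasmic phosphatase most specific for ERK (chromosome 12, 89347232 to 89353271, minus strand), lay the other way. WT held 119.8 CPM and siNC 138 CPM, against 83, 108, 77.2 and 131 CPM in siRIPK2_1 to siRIPK2_4. The siNC library was the highest and siRIPK2_4 stood above WT, so the knockdown values did not lie apart from both controls. The log2 fold change was -0.47 against siNC (95% interval -1.28 to 0.35, adjusted p = 1 in edgeR) and -0.26 against WT (-1.09 to 0.56). DUSP5 and DUSP6, which both act on ERK, had their extreme values in the same knockdown libraries but at opposite ends. There siRIPK2_1 and siRIPK2_3 held the highest pair of DUSP5 values and the lowest pair of DUSP6 values. How often 2 genes part in this way was not counted, and siRIPK2_3 was highest or lowest for 8 of the 10 members.

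DUSP4, a nuclear phosphatase that acts on ERK and on other MAP kinases (chromosome 8, 29333064 to 29350668, minus strand), was level in the controls, 61.7 CPM in WT and in siNC alike. The knockdown libraries held 121, 79.8, 78.5 and 57.6 CPM, so siRIPK2_1 was the highest of all 6 and siRIPK2_4 the lowest. DUSP1, an immediate early phosphatase that also acts on JNK and p38 (chromosome 5, 172768090 to 172771195, minus strand), stood at 70.7 CPM for WT and 106 CPM for siNC. In siRIPK2_1 to siRIPK2_4 it was at 51.3, 89.4, 140.2 and 73.4 CPM, a span that held both controls. The log2 fold change of DUSP4 was 0.45 against siNC and 0.45 against WT (95% intervals -0.53 to 1.43 in both), and without siRIPK2_1 it was 0.21 and 0.22. For DUSP1 the sign differed between the controls, with -0.26 against siNC (-1.40 to 0.88) and 0.32 against WT (-0.86 to 1.51). Without siRIPK2_3 these became -0.57 and 0.013.

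The Sprouty and SPRED genes encode membrane-associated inhibitors of receptor signalling to RAF. SPRY2 (chromosome 13, 80335976 to 80340951, minus strand) was the steadiest member. WT held 62.5 CPM, siNC 64.8 CPM and the knockdown libraries 59.7, 62.5, 56.8 and 70.1 CPM, in the order siRIPK2_1 to siRIPK2_4. Its log2 fold change was -0.06 against siNC (95% interval -0.72 to 0.61) and -0.00 against WT (-0.67 to 0.66). The highest knockdown library exceeded the lowest 1.23-fold, and only 7.43% of all tested genes had a smaller range.

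SPRY4 (chromosome 5, 142310427 to 142326455, minus strand) was far less even. WT held 40.7 CPM and siNC 45.6 CPM, while siRIPK2_1 to siRIPK2_4 held 56, 40, 25.6 and 64.5 CPM. The controls sat in the middle, with siRIPK2_1 and siRIPK2_4 above them and siRIPK2_2 and siRIPK2_3 below. The means were nearly equal, at 46.5 ± 17.3 CPM (SD, n = 4) after knockdown, and the log2 fold change was 0.03 against siNC (95% interval -1.10 to 1.16) and 0.19 against WT (-0.95 to 1.34).

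SPRED1, whose protein brings the RAS inhibitor neurofibromin to the membrane (chromosome 15, 38252326 to 38357249, plus strand), differed in 1 library. WT held 56.4 CPM and siNC 59.2 CPM, against 67.2, 21.1, 58.8 and 60.2 CPM in siRIPK2_1 to siRIPK2_4. In siRIPK2_2 it lay 1.49 below the median of the other 5 libraries on the log2 scale, while the other 5 stayed between 56.4 and 67.2 CPM. A drop of at least 1 on that scale was found in 3.5% of all tested genes in siRIPK2_2. The same library had the most RIPK2 left, 11.9 CPM against 3.86, 6.27 and 4.32 CPM in siRIPK2_1, siRIPK2_3 and siRIPK2_4, and any part of this in the SPRED1 value was not tested. Over all 4 libraries the log2 fold change of SPRED1 was -0.19 against siNC and -0.12 against WT. Without siRIPK2_2 it was 0.07 and 0.14 (adjusted p = 1 in edgeR throughout).

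**Figure D2:**
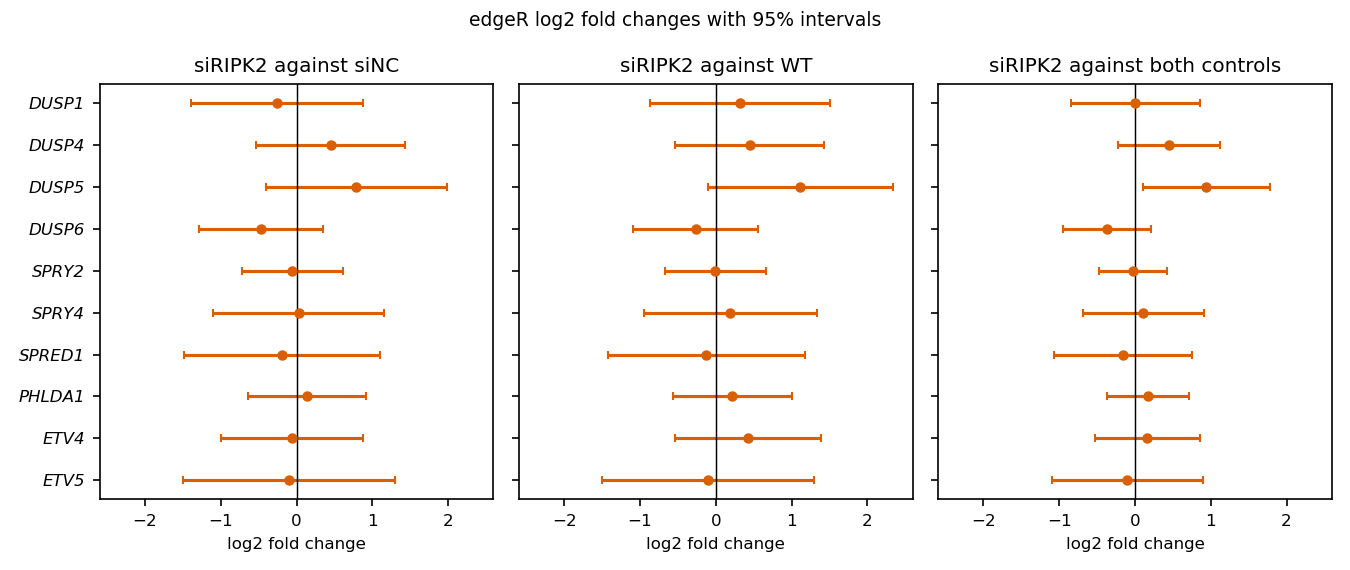
Points are edgeR log2 fold changes of the 10 genes (x axes) and bars their 95% intervals, for the 4 siRIPK2 libraries against siNC, against WT and against both controls. Every interval against siNC and WT spans 0, and DUSP5 against both controls is the only one that does not (0.10 to 1.78).

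PHLDA1, a pleckstrin homology-like protein induced by growth factors (chromosome 12, 76025447 to 76033932, minus strand), stood at 667 CPM for WT and 706 CPM for siNC, against 808, 590.1, 1000 and 706 CPM in siRIPK2_1 to siRIPK2_4. Here siRIPK2_3 was the highest library, siRIPK2_2 the lowest, and siRIPK2_4 level with siNC. The log2 fold change was 0.14 against siNC (95% interval -0.64 to 0.91) and 0.22 against WT (-0.57 to 1.00).

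ETV4 and ETV5 encode transcription factors of the PEA3 branch of the ETS family, which act at the nuclear end of the pathway. Both genes have exons that overlap another counted gene, DHX8 for ETV4 and DGKG for ETV5, and since the strand setting of the counting is not given in the sources used here, their values are less certain. ETV4 (chromosome 17, 43527844 to 43579620, minus strand) stood at 19.8 CPM for WT and 27.6 CPM for siNC, against 26.6, 22.1, 37.2 and 20.2 CPM in siRIPK2_1 to siRIPK2_4. WT was the lowest library, and siRIPK2_3 was the only knockdown library above siNC. The log2 fold change was 0.43 against WT (95% interval -0.54 to 1.39) and -0.06 against siNC (-0.99 to 0.88).

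ETV5 (chromosome 3, 186046308 to 186110318, minus strand) stood at 131.8 CPM for WT and 131 CPM for siNC, against 111, 157, 47.3 and 175 CPM in siRIPK2_1 to siRIPK2_4. The controls were level with each other, and siRIPK2_3 stood 1.48 below the median of the other 5 libraries on the log2 scale, a drop of at least 1 that 6.49% of all tested genes shared in that library. The log2 fold change was -0.10 against both siNC (95% interval -1.50 to 1.31) and WT (-1.51 to 1.30), and without siRIPK2_3 it was 0.17 and 0.16. The values of these related factors diverged in siRIPK2_3, where ETV4 was at its highest and ETV5 at its lowest.

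The control siRNA library was close to WT for most of these genes. Of the 10 genes 9 were higher in siNC than in WT, DUSP4 among them by less than its printed digits show, beside 7092 of all 14306 genes tested, with a median log2 difference of 0.12 beside -0.00 over all genes tested. The gap was widest for DUSP1 (0.58, 95% interval -0.89 to 2.05) and ETV4 (0.48, -0.71 to 1.67). In edgeR 0 members and 0% of all genes passed the adjusted threshold. At an unadjusted p under 0.05 there were 0 members, beside 0.643% of all genes as higher and 2.09% as lower in siNC. The median size of the gap, whatever its direction, was 0.12 on the log2 scale for the members and 0.28 over all genes tested.

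**Figure D3:**
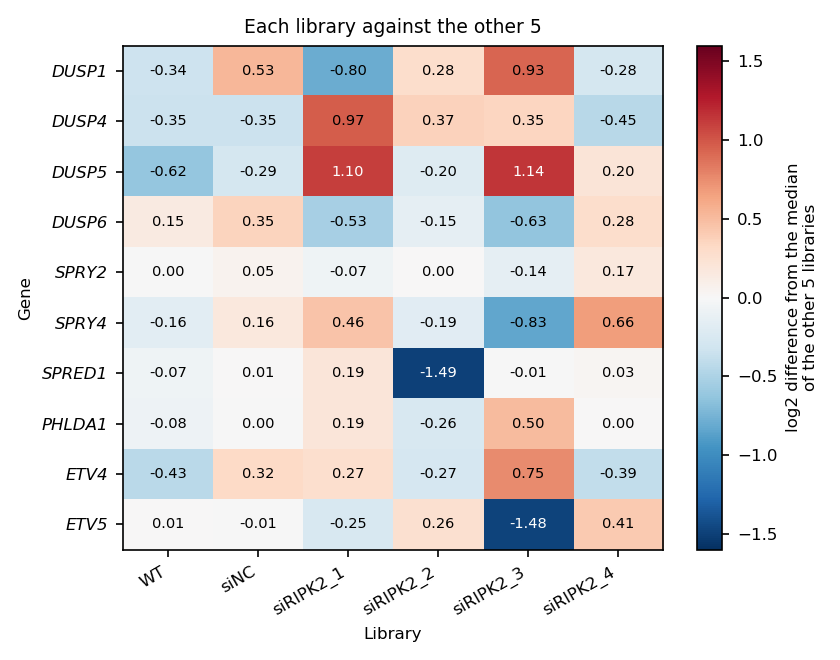
Each cell gives the log2 CPM of 1 gene in 1 library minus the median of the other 5 libraries, red for higher and blue for lower. Column siRIPK2_3 holds the strongest mix of both, from 1.14 for DUSP5 to -1.48 for ETV5, and SPRED1 in siRIPK2_2 is at -1.49.

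The knockdown libraries differed widely from one another. On the log2 scale, the highest knockdown library exceeded the lowest by a median of 1.11 over the members (2.15-fold) and of 0.82 over all genes tested (1.77-fold). The range was 3.69-fold for ETV5, 3.19-fold for SPRED1, 2.73-fold for DUSP1 and 2.52-fold for SPRY4. Among genes whose mean level lay within 0.5 on the log2 scale, 97.1%, 93.9%, 92% and 88% had a smaller range than these members, in the same order. Against all genes tested the shares were 89.6%, 85.8%, 80.7% and 76.9%. DUSP6, PHLDA1 and ETV4 had ranges of 1.70-fold, 1.69-fold and 1.84-fold. A smaller range was found for 62.8%, 62.1% and 62.3% of genes of similar level and for 45.9%, 45.6% and 53.8% of all genes.

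**Figure D4:**
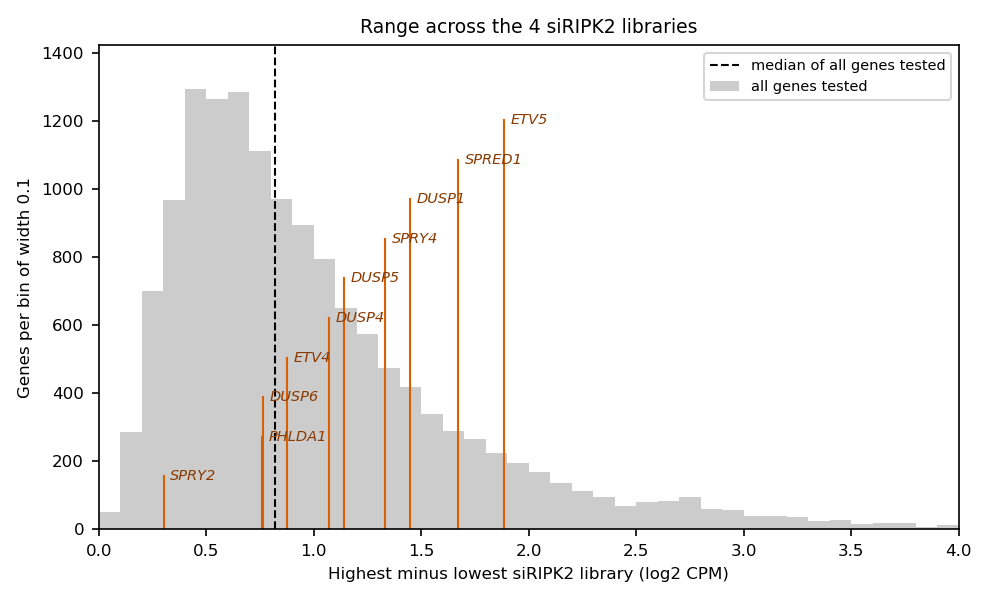
Grey bars count genes by the log2 difference between their highest and lowest siRIPK2 library (x axis cut at 4, beyond which 89 of 14306 genes lie), and the dashed line is the median over all genes tested, 0.82. Orange lines mark the 10 members: SPRY2 is far to the left of the median and ETV5, SPRED1, DUSP1 and SPRY4 are in the right-hand part.

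The library siRIPK2_3 held more of the members' extremes than any other of the 6 libraries. It was the highest of all 6 libraries for DUSP1, DUSP5, PHLDA1 and ETV4 and the lowest for DUSP6, SPRY2, SPRY4 and ETV5, which is 8 of the 10 members, against 38.4% of all genes tested. The other libraries were highest or lowest for 4 members (siRIPK2_4), 3 (siRIPK2_1), 2 (siRIPK2_2), 2 (WT) and 1 (siNC), against 33.3%, 41.9%, 35%, 18.2% and 33.2% of all genes. The median distance of a member from the other 5 libraries was 0.69 on the log2 scale in siRIPK2_3, beside 0.31 over all genes, and from 0.16 to 0.36 in the other libraries. A distance of at least 1 occurred in 4 of the 60 values: DUSP5 above the others in siRIPK2_1 and siRIPK2_3 (4.03% and 2.76% of all genes did so), ETV5 below them in siRIPK2_3 and SPRED1 below them in siRIPK2_2. RIPK2 was at 6.27 CPM in siRIPK2_3, between the values of the other knockdown libraries, and that library had the largest total count, 45309423. Whether its depth has a part in these values was not tested.

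The members did not share 1 profile over the libraries. Likeness was measured as the root-mean-square difference of log2 CPM over the 6 libraries after centring each gene on its own mean, a description of these libraries only, in which genes of small range come out close. The closest pair was PHLDA1 and ETV4 (0.17), and the most distant pair was DUSP5 and ETV5 (1.12). Of 10672 genes with a mean of at least 5 CPM, the 3 most like DUSP5 were ANKRD13B (0.20), ZNF346 (0.22) and MIDN (0.23), while its closest fellow member was DUSP4 (0.41). For DUSP6 they were ARSD (0.05), SMIM14 (0.08) and NAXE (0.08), with SPRY2 (0.24) the closest member. For SPRY4 they were PHF19 (0.09), HSPA14 (0.11) and CBX8 (0.12), again with SPRY2 (0.36) as the closest member. With so many genes searched, the nearest gene is at least as close as the nearest member by construction. Ranked by likeness to DUSP5 among the 10672 genes, its closest member DUSP4 was at 338 and its most distant, ETV5, at 10396. For DUSP6 these ranks were 629 (SPRY2) and 10373 (DUSP5), and for SPRY4 1163 (SPRY2) and 10033 (DUSP1).

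Further genes were read from lists set by function or gene family, with earlier results of these data known. Genes named from these lists had the lowest unadjusted p against siNC in edgeR. A siNC value apart from the other libraries is therefore partly built into that choice. The first list held 18 genes: other DUSP, SPRY, SPRED, ETV and PHLDA genes with ERRFI1, LRIG1 and IL17RD. It goes largely by gene family, and not all of its genes are known as ERK feedback genes. Of the 18 genes 16 were measured, 5 with a higher and 11 with a lower mean than siNC (median log2 fold change -0.17). Against WT 12 were higher and 4 lower (median 0.19). In edgeR 0 passed the adjusted threshold against either. LRIG1, which promotes the breakdown of EGF receptors, had the lowest unadjusted p of this list against siNC (0.00845, adjusted p = 0.972 in edgeR). It stood at 378 CPM for siNC and 151 CPM for WT, against 202, 194, 174 and 120.3 CPM in siRIPK2_1 to siRIPK2_4, so siNC stood above the other 5. ERRFI1, an inhibitor of the EGF receptor, averaged 127 ± 56.3 CPM (SD, n = 4) after knockdown, with 226 CPM for siNC and 120.1 CPM for WT. ETV1, the remaining PEA3 factor, averaged 49.1 ± 5.88 CPM after knockdown, with 33.4 CPM for siNC and 39.6 CPM for WT.

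Of the 16 ERK output genes 7 had a higher and 9 a lower mean than siNC (median -0.06), and 11 were higher and 5 lower than WT (median 0.17), with 0 past the adjusted threshold in edgeR. CCND1, the gene of cyclin D1, averaged 1192 ± 302 CPM (SD, n = 4) after knockdown, with 1744 CPM for siNC and 1039.9 CPM for WT. JUNB, an AP-1 subunit gene, averaged 89.2 ± 33.8 CPM after knockdown, with 154 CPM for siNC and 81 CPM for WT. The urokinase receptor gene PLAUR averaged 68.4 ± 15.6 CPM after knockdown, with 102 CPM for siNC and 69.1 CPM for WT. In each of these 3 genes siNC was the highest of the 6 libraries, which their choice by p against siNC favours. The lowest unadjusted p of this list against siNC was that of the immediate early gene IER2 (0.000651, adjusted p = 0.972 in edgeR), with a log2 fold change of -2.40 against siNC and 0.80 against WT. IER2 stood at 7.49, 13.3, 5.56 and 10.8 CPM in siRIPK2_1 to siRIPK2_4 against 49.1 CPM for siNC and 5.36 CPM for WT. Here too siNC stood above the other 5, and the same choice applies.

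The core of the cascade, from GRB2 to the RSK kinases, had 10 genes higher and 11 lower than siNC (median -0.05) and 10 higher and 11 lower than WT (median -0.04), with 0 of 21 past the adjusted threshold in edgeR. GRB2, the adaptor that links receptors to RAS activation, averaged 63.5 ± 17.2 CPM (SD, n = 4) after knockdown, with 131 CPM for siNC and 61.8 CPM for WT. RPS6KA1, the gene of the kinase RSK1, averaged 20.4 ± 2.83 CPM after knockdown, with 32.7 CPM for siNC and 18.6 CPM for WT. MAP2K1, the gene of MEK1, averaged 118.2 ± 13.9 CPM after knockdown, with 178 CPM for siNC and 111 CPM for WT. PTPN11, the gene of the phosphatase SHP2, averaged 270 ± 49.3 CPM after knockdown, with 173 CPM for siNC and 253 CPM for WT.

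Upstream, 11 of 14 growth factor receptor genes were measured, 6 higher and 5 lower against siNC (median 0.03) and the same split against WT (median 0.07). IGF1R, the insulin-like growth factor receptor gene, had the lowest unadjusted p of this list against siNC (0.144, adjusted p = 1 in edgeR), with 76.2, 47.9, 92.2 and 72.5 CPM in siRIPK2_1 to siRIPK2_4 against 46 CPM for siNC and 56.4 CPM for WT. The siNC value was the lowest of these, which the choice by p against siNC favours, and siRIPK2_2 was below WT. The receptor gene PDGFRB, next by p (0.4), stood at 60.9, 201, 138 and 39.1 CPM in siRIPK2_1 to siRIPK2_4 against 173 CPM for siNC and 159 CPM for WT. Of 18 ligand genes 14 were measured, 8 higher and 6 lower against siNC (median 0.15) and 10 higher and 4 lower against WT (median 0.28), again with 0 past the adjusted threshold in edgeR for either list. EREG, the gene of epiregulin, was above both controls in all 4 knockdown libraries, as were 4.96% of all genes tested. It stood at 34.3, 33.5, 29.7 and 36.5 CPM in siRIPK2_1 to siRIPK2_4 against 18.3 CPM in siNC and 24.8 CPM in WT. Its log2 fold change was 0.87 against siNC (SE 0.322, adjusted p = 0.984 in edgeR) and 0.44 against WT (adjusted p = 1). HGF, the ligand of the receptor MET, averaged 8.51 ± 3.65 CPM after knockdown, with 2.99 CPM for siNC and 8.32 CPM for WT.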

How the data were processed

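RNA of 6 U118 libraries was sequenced after poly(A) enrichment, per the labels' protocols. The deposited table holds raw read counts, 1 row for each Ensembl gene. FastQC, Trimmomatic, HISAT2 and bedtools with GRCh38 are listed per the submitters' processing notes. Versions, annotation and strand setting: not given in the sources used here. Symbols were matched for 20148 of 20263 IDs, and GENCODE release 29 supplied coordinates, exon lengths and overlaps for 20224.

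Tests used the quasi-likelihood method of edgeR 4.0.16 (R 4.3.3) with TMM factors and filterByExpr at a minimum of 10 counts, adjusted by Benjamini-Hochberg over all tested genes. One fit with 3 groups gave the comparisons with siNC and WT, where only the 4 siRIPK2 libraries supply a spread and a lone control is taken to vary alike. A second fit pooled the controls. Intervals are 95% and come from the same fits. DESeq2 1.42.0, limma 3.58.1, other size factors, no filter and leaving out libraries were the alternatives. The log2 CPM values used a prior count of 2. The code was tested on simulated data. No pair of libraries was a duplicate (chi-square of 77.1 to 223.6 per degree of freedom).

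All 10 members are reported. From each further list up to 4 genes with at least 1 CPM and the lowest unadjusted p against siNC could be named, and for DUSP5, DUSP6 and SPRY4 the 3 most similar genes. Members and lists were chosen with earlier results of these data known.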

Additional observations from a re-analysis of the deposited data

Results flagged for a closer look

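SPRED1 in siRIPK2_2 stood apart from the other knockdown libraries. Its level there was 21.1 CPM, against 67.2, 58.8 and 60.2 CPM in siRIPK2_1, siRIPK2_3 and siRIPK2_4. On the log2 CPM scale the gap to the nearest library was 0.884 of the whole range of the 4, above Dixon's 95% critical value. On the CPM scale the ratio was 0.817, below it. Such a check passes about 1 group in 20 by chance, and 11 genes (the members and RIPK2) were read on both scales.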

How the results depend on the processing

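No alternative brought any of the 10 genes past the adjusted threshold in any of the 4 comparisons (adjusted p from 0.998 to 1 over 340 values, each 1 gene in 1 comparison under 1 of 10 settings), and 313 of these values kept their direction. The number of genes called over the whole table was 0 in edgeR in each comparison. With the DESeq2 Wald test it was 74 against siNC, 9 against WT, 11 for siNC against WT and 11 against both controls, and against WT it was 1 in limma-voom and 1 without the filter. Leaving out 1 library gave 0 to 2 calls against both controls. The whole-table DESeq2 counts used its default filtering of low counts and outliers, while the adjusted p of the members was taken without it. The cause of these differences in calls was not tested. Directions turned only where the log2 fold change was at most 0.19 in size. With DESeq2 size factors and the DESeq2 Wald test SPRY2 against WT was 0.005636 and 0.005599. With limma-voom SPRY4 against siNC was -0.06416 and DUSP1 against both controls -0.0546, and without the filter DUSP4 in siNC against WT was -0.0003678. Leaving out 1 library gave, against siNC, -0.27 to 0.05168 for ETV4, -0.32 to 0.17 for ETV5, -0.01067 to 0.25 for PHLDA1, -0.36 to 0.06806 for SPRED1 and -0.17 to 0.23 for SPRY4. Against WT it gave -0.33 to 0.16 for ETV5, -0.28 to 0.14 for SPRED1, -0.06631 to 0.03775 for SPRY2 and -0.005259 to 0.40 for SPRY4. Against both controls it gave -0.30 to 0.33 for DUSP1, -0.06631 to 0.43 for ETV4, -0.32 to 0.17 for ETV5, -0.32 to 0.10 for SPRED1, -0.09157 to 0.01273 for SPRY2 and -0.08869 to 0.31 for SPRY4. Without a change of direction, values still moved by over 1.5 times for DUSP1 (-0.57 to -0.08349 against siNC and 0.01297 to 0.51 against WT), DUSP4 (0.21 to 0.59 against siNC), DUSP6 (-0.42 to -0.16 against WT), ETV4 (0.22 to 0.53 against WT) and PHLDA1 (0.07161 to 0.33 against WT), among others. For siNC against WT, ETV5 ran from -0.006206 to 0.005412. No paired analysis was possible because WT and siNC are 1 library each. The depth was ample for these genes, and each interval against siNC or WT rests on 1 control library.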
